A study of Mus musculus with 23 samples.

Results

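The heat shock chaperones and cochaperones described here are 10 genes, Hspa1a, Hsph1, Hspa8, Hsp90aa1, Dnajb1, Bag3, Hspb1, Chordc1, Cacybp and Ahsa1, out of 18704 genes measured in the mouse hypothalamus. They were taken by name, with earlier results of these data known, and all 10 had a probe set naming that gene alone. A gene with several such probe sets was represented by the one whose mean over the arrays was highest.

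The study asked how celastrol, a plant triterpenoid that reduces food intake in obese mice, acts on the hypothalamus of mice without working leptin signalling. The 23 arrays came from male mice of the db/db strain, which carries a mutated leptin receptor, aged 8 weeks and kept on normal chow for 2 weeks. The mice were injected intraperitoneally with celastrol in DMSO or with DMSO alone, the vehicle, at 25 µl of DMSO per day. Treatment lasted 6 h, 1 day or 4 days. The vehicle groups had 4 arrays at each time, and the celastrol groups had 3 arrays at 6 h, 4 at 1 day and 4 at 4 days. The celastrol dose was 250 µg/kg at 6 h; for 1 day and 4 days no dose is stated in the sources used here. Arrays of a group are labelled as biological replicates without a word on whether each is 1 animal or a pool, so the p-values measure the spread between these arrays. No wild-type or uninjected mice were compared. Each array holds tissue of the hypothalamus, in which fewer cells of a type and less RNA per cell cannot be told apart.

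Heat shock proteins are chaperones that hold unfolded proteins and help them fold. HSP70 proteins work with HSP40 partners, which deliver the client, and with exchange factors such as BAG and HSP110 proteins, which release it. HSP90 acts later on kinases, receptors and other clients, aided by cochaperones that set the pace of its ATP cycle. In stressed cells the transcription factor HSF1 binds heat shock elements, which are inverted repeats of the unit nGAAn, and switches on many of these genes together. Celastrol is known from cultured cells as an inducer of this response. Neurons keep the constitutive Hspa8 at a high level without stress.

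Heat shock elements near the starts of these genes are shown first, because they are the sites through which HSF1 acts. Sequences came from RefSeq (GRCm38.p6) for a window from 250 bases before to 50 bases after each annotated start, and 8 of the 10 members had a window. The windows were searched on both strands for the 2 arrangements of a pair of units, GAANNTTC and TTCNNGAA, and for 3 units, in which GAANNTTC is followed by NNGAA or TTCNNGAA by NNTTC, so that pairs overlap within them. A pair of units was found in 5 members (Chordc1, Hsph1, Hspa1a, Hspb1 and Bag3), and in 15.1% of all 32851 windows. Capitals mark the matches in the stretches below, written 5′ to 3′ on the gene's strand.
Chordc1: gcaaccgGAACGTTCGGGAAAATTCCTGAA
Hsph1: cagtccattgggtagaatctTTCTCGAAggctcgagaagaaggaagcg
Hspa1a: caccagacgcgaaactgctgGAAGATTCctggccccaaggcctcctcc
Hspb1: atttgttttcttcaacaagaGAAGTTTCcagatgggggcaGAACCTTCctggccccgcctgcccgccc
The Chordc1 stretch lies at chr9:18292256-18292285 on the plus strand and runs from 11 bases before to base 19 after the start. It holds 5′ to 3′ a run of alternating units in which each arrangement of 3 units is found. The Hsph1 stretch lies at chr5:149636342-149636389 on the minus strand, the Hspa1a stretch at chr17:34972233-34972280 on the minus strand and the Hspb1 stretch at chr5:135887782-135887849 on the plus strand. Arrangements of 3 units were found in 2 members, Chordc1 and, after its start, Hsph1 (TTCTGGAAAGTTC), and in 0.603% of all windows. Bag3 had a single pair (GAAGTTTC) after its start. Windows of Ahsa1, Cacybp and Dnajb1 held none of these letters. A match describes the sequence only, and binding was not measured.

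Levels are RMA values on the log2 scale, and a level cannot be set against that of another gene because probes differ in brightness. Array medians lay between 8.57 and 8.64, and no arrays were identical. Of 15 hypothalamus markers measured, Pmch and Hcrt, neuropeptide genes that mark the lateral hypothalamus, stood at the 99.4 and 99.1 percentiles of gene means. Kiss1 stood lowest of the 15, at 37.5, and Pomc stood at 50.5. Such ranks between genes are rough, because probes differ in brightness. The pituitary hormone gene Prl was above 9 in 4 vehicle arrays (replicates 2 and 4 at 6 h, replicate 1 at 1 day and replicate 2 at 4 days) and in no celastrol array. The SD over genes of an array's log2 values ran from 1.89 to 1.91 in the 4-day vehicle group, below every other vehicle array (1.92 to 1.96). At 6 h the SDs of all celastrol arrays (up to 1.917) were below those of the vehicle arrays (from 1.922). The same held at 1 day (up to 1.932 with celastrol, from 1.933 with vehicle). For Hspa8, Hsp90aa1 and Hspb1 the probe set used may read a near-identical copy of the gene as well as the gene, so the values of these 3 members are uncertain to that extent, and other probe sets of each are given after the results. Replicate 3 of the 6-h vehicle group had the lowest array weight, 0.200, where the other 22 had weights between 0.62 and 1.62.

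None of the chaperone genes passed the test for a celastrol effect. With limma and Benjamini-Hochberg adjustment over all genes, 0 of 10 members were called at 6 h, 1 day or 4 days, in the mean of the 3 times, or for a celastrol effect that differed between times. Of all genes tested, 0% were called at 6 h, 0.016% at 1 day, 0% at 4 days, 0% for the mean effect and 0.0588% for the difference between times. At an unadjusted p under 0.05 there were 3 members at 6 h (14.8% of all genes), 1 at 1 day (12.5%), 2 at 4 days (7.29%), 2 for the mean effect (13.5%) and 2 for the difference between times (13% of all genes). Apart from the last, which has no direction, all of these were lower with celastrol, as were 6.22% of all genes at 6 h, 4.19% at 1 day, 4.57% at 4 days and 5.25% for the mean effect.

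At 6 h, 8 of the 10 members had lower values with celastrol and 2, Hsp90aa1 and Bag3, had higher values. The median difference over the members was -0.085, beside 0.0072 over all genes. It was -0.044 without replicate 1 of the celastrol group, -0.14 without replicate 3 of it and -0.026 with the SD of each array as a covariate. At 1 day 7 of 10 were lower (median -0.024, beside 0.0086 over all genes), and at 4 days it was 4 of 10 (median 0.0065, beside -0.00053). Of all genes 52.8% had higher values with celastrol at 6 h, 54.1% at 1 day and 49.7% at 4 days. Differences near 0 changed direction when 1 array was left out, for Hspa1a, Hsph1 and Ahsa1 at 1 day and for Hsph1, Hspa8 and Chordc1 at 4 days. The highest upper limit of a 95% confidence interval among the members was 1.14-fold at 6 h, 1.23-fold at 1 day and 1.16-fold at 4 days.

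Markers of other cells and tissue differed in the same comparisons. At 6 h the 7 leukocyte markers measured of 9 averaged between 6.60 and 6.70 in vehicle arrays and between 6.76 and 6.86 in celastrol arrays, without overlap, and 6 of the 7 had higher values with celastrol. Within groups Cacybp and Dnajb1 ran against that list (Pearson r = -0.55 and -0.52, permutation test, adjusted p = 0.133 and 0.0973 over 110 relations; Spearman rho = -0.62 and -0.596, adjusted p = 0.084 for both; r = -0.573 and -0.505 without the 2 farthest arrays), and neither passed. Pearson r was larger in size with other lists, which did not pass either. Dnajb1 had r = 0.638 with neuron markers and 0.606 with endothelial markers (permutation test, adjusted p = 0.133 and 0.147). Cacybp had r = 0.581 with microglia markers (permutation test, adjusted p = 0.34), and 0.148 without the 2 farthest arrays. Of 9 thalamus markers 8 had lower values with celastrol at 6 h and 9 at 1 day (medians -0.061 and -0.22). None of these markers passed for a celastrol difference at 6 h or 1 day (limma), and their part in the members' values was not tested.

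**Figure D1:**
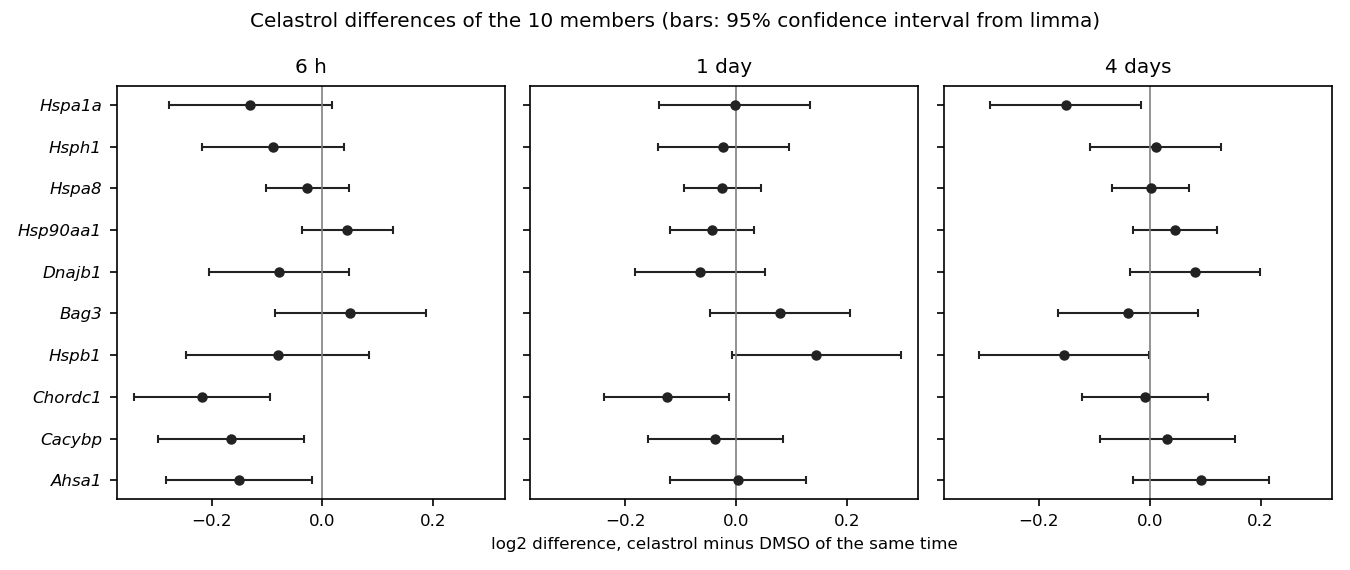
Log2 difference between celastrol and DMSO arrays of the same time (horizontal axis) for the 10 members at 6 h, 1 day and 4 days; points are estimates and bars are 95% confidence intervals from limma. At 6 h 8 members lie left of 0, with Chordc1 the lowest at -0.22, and no interval at any time reaches 0.5.

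Some of these genes differed between treatment times. The clock hour of dissection is not stated in the sources used here, so length of treatment and hour of dissection cannot be told apart. In vehicle mice 2 of the 10 members, Chordc1 and Hsp90aa1, differed between 6 h, 1 day and 4 days (limma F test, adjusted p = 0.000137 and 0.0394), where 8.83% of all genes did. In celastrol mice 1 member, Chordc1, differed (adjusted p = 0.0216), where 0.246% of all genes did. Both had their lowest vehicle level at 4 days, as did 534 of the 1651 genes that differed in vehicle mice, or 2.86% of all genes. With celastrol Chordc1 was again lowest at 4 days, as were 13 of the 46 genes that differed (0.0695% of all genes). Chordc1 had the smallest p of all 18704 genes in each of these tests. The members were chosen with earlier results of these data known, so this rank is not independent support.

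**Figure D2:**
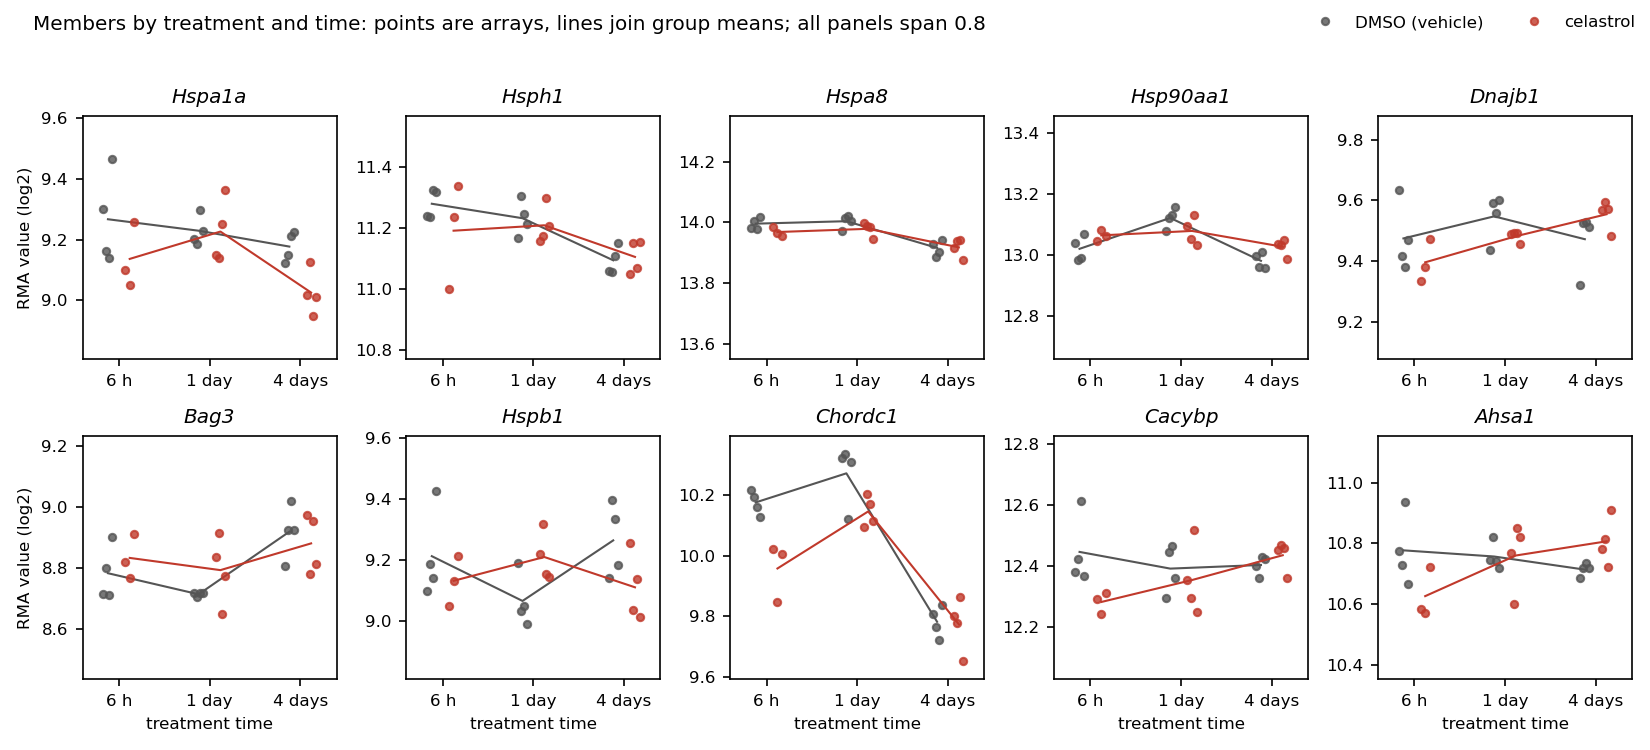
RMA value (log2, vertical axis) of each of the 10 members on every array, by treatment time; grey points are DMSO arrays, red points are celastrol arrays, and lines join the group means. All panels span 0.8 on the log2 scale. Chordc1 falls at 4 days in both treatments, from group means of 10.27 with vehicle and 10.15 with celastrol at 1 day to 9.78 and 9.77.

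Chordc1 encodes a zinc-binding cochaperone of HSP90, also called morgana, and is itself a heat shock gene. In vehicle mice its values were 10.22, 10.19, 10.16 and 10.13 at 6 h, 10.32, 10.33, 10.12 and 10.31 at 1 day, and 9.81, 9.76, 9.72 and 9.84 at 4 days. All 4 arrays of 4 days lay below all 8 earlier vehicle arrays. From 6 h to 4 days the level fell by 0.39 ± 0.055 SE, a 1.31-fold drop (95% confidence interval -0.51 to -0.28), and from 1 day to 4 days by 0.49 ± 0.055 SE. Between 6 h and 1 day it differed by 0.096 ± 0.055 SE, and the arrays overlapped.

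With celastrol, Chordc1 stood at 10.022, 9.846 and 10.004 at 6 h, at 10.10, 10.20, 10.17 and 10.11 at 1 day, and at 9.80, 9.78, 9.86 and 9.65 at 4 days. The 1-day arrays were above and the 4-day arrays, with 1 exception, below those of 6 h. The level differed by 0.19 ± 0.059 SE between 6 h and 1 day and fell by 0.37 ± 0.055 SE from 1 day to 4 days, a 1.29-fold drop. The 4-day vehicle arrays had the low SD over genes given above. With that SD as a covariate the adjusted p of Chordc1 was 0.0821 in vehicle mice and 0.0237 in celastrol mice, whose SDs overlapped between times (1.87 to 1.92, 1.91 to 1.93 and 1.88 to 1.94). The celastrol call was lost without replicate 4 of the 1-day celastrol group (adjusted p = 0.0540) and with only the celastrol groups in the fit (adjusted p = 0.0917).

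Beside vehicle at the same time, Chordc1 had the largest celastrol difference of the members at 6 h. All 3 celastrol arrays were below all 4 vehicle arrays, with means of 9.96 ± 0.097 (SD, n = 3) and 10.17 ± 0.039 (SD, n = 4), and the difference was -0.22 ± 0.059 SE (limma, adjusted p = 0.173). At 1 day the difference was -0.13 ± 0.055 SE (limma, adjusted p = 0.356) and at 4 days -0.0083 ± 0.055 SE (limma, adjusted p = 0.992). These 3 differences were not shown to change with time (limma F test, adjusted p = 0.385). Groups without overlap at 6 h were found for 2 of 10 members, Chordc1 and Cacybp, and for 10.3% of all genes. At 1 day (11% of all genes) and at 4 days (3.5%) the groups of 0 members were apart.

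Ahsa1, also an HSP90 cochaperone, stimulates its ATPase. At 6 h its values were 10.78, 10.73, 10.94 and 10.67 with vehicle and 10.59, 10.57 and 10.72 with celastrol. The groups overlapped, since the highest celastrol array lay above the lowest vehicle array. The difference was -0.15 ± 0.064 SE (limma, adjusted p = 0.287), and at 4 days it was 0.093 ± 0.059 SE (limma, adjusted p = 0.799).
Cacybp encodes a protein that binds calcyclin and SIAH1 and is related to the cochaperone SGT1. Its 6-h values were 12.38, 12.42, 12.61 and 12.37 with vehicle and 12.29, 12.24 and 12.31 with celastrol, and the groups did not overlap. The difference was -0.16 ± 0.063 SE (limma, adjusted p = 0.248). In both genes replicate 3 of the vehicle group, the array of lowest weight, was the highest value. Without it the 6-h difference was -0.098 for Ahsa1 and -0.11 for Cacybp, and -0.22 for Chordc1.

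At the later times Ahsa1 stood at 10.75, 10.82, 10.74 and 10.72 with vehicle and 10.77, 10.60, 10.85 and 10.82 with celastrol at 1 day, and at 10.69, 10.72, 10.73 and 10.72 with vehicle and 10.78, 10.82, 10.72 and 10.91 with celastrol at 4 days. Cacybp stood at 12.29, 12.45, 12.47 and 12.36 with vehicle and 12.35, 12.30, 12.52 and 12.25 with celastrol at 1 day, and at 12.40, 12.36, 12.43 and 12.42 with vehicle and 12.45, 12.47, 12.46 and 12.36 with celastrol at 4 days. The treatments overlapped for both genes at both later times.

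In celastrol mice both genes had lower values at 6 h than at 4 days, without overlap, by 0.18 ± 0.064 SE for Ahsa1 and 0.15 ± 0.063 SE for Cacybp. Neither passed the test over the 3 times (limma F test, adjusted p = 0.25 and 0.34). Vehicle mice differed by -0.063 ± 0.059 SE and -0.043 ± 0.059 SE over the same interval. Groups of 6 h and 4 days without overlap were found in 4 of 10 members with celastrol (Hspa8, Dnajb1, Cacybp and Ahsa1), beside 12.4% of all genes, and in 3 of 10 with vehicle (Hsph1, Hspa8 and Chordc1), beside 11.5%. Groups of 1 day and 4 days were apart in 5 of 10 members with vehicle (Hsph1, Hspa8, Hsp90aa1, Bag3 and Chordc1), beside 20.9% of all genes, and in 4 of 10 with celastrol (Hspa1a, Hsph1, Hspa8 and Chordc1), beside 9.75%. Groups of 6 h and 1 day were apart in 1 member with vehicle, Hsp90aa1, beside 5.8%, and in 1 with celastrol, Chordc1, beside 11.5%.

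**Figure D3:**
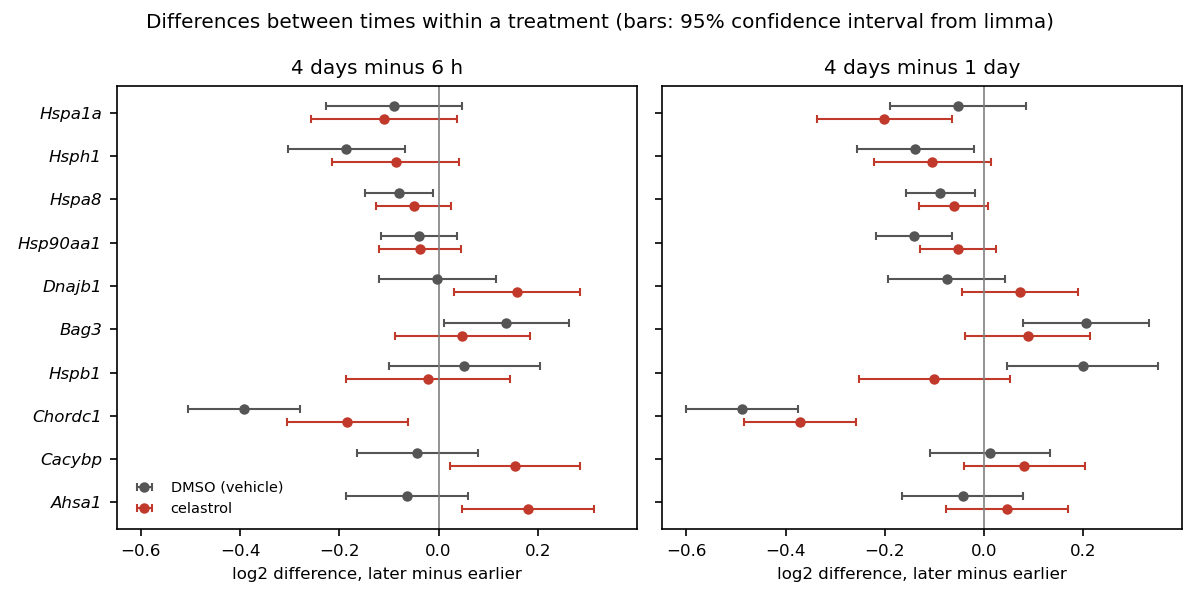
Log2 difference of the 4-day level from the 6-h level and from the 1-day level (horizontal axes) for the 10 members; grey is DMSO, red is celastrol, and bars are 95% confidence intervals from limma. Chordc1 lies lowest in both panels, at -0.39 and -0.49 with vehicle and at -0.18 and -0.37 with celastrol.

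Hsp90aa1 encodes the stress-inducible cytosolic HSP90, the chaperone that Chordc1 and Ahsa1 assist. In vehicle mice its values were 13.04, 12.98, 12.99 and 13.07 at 6 h, 13.08, 13.12, 13.13 and 13.16 at 1 day, and 13.00, 12.96, 13.01 and 12.96 at 4 days. The 1-day arrays were above all arrays of the other times. From 1 day to 4 days the level fell by 0.14 ± 0.037 SE, and between 6 h and 1 day it differed by 0.10 ± 0.037 SE. This call was held in 22 of 35 other settings. It was lost without any 1 of the 4-day vehicle arrays (limma, adjusted p between 0.0604 and 0.0835), without replicate 2, 3 or 4 of the 1-day vehicle group (adjusted p = 0.0836, 0.0863 and 0.112) and with the array SD as a covariate (adjusted p = 0.416). It was also lost after further quantile normalization (limma, adjusted p = 0.0747), with a block for the replicate number (0.0561), with only the vehicle groups in the fit (0.105), without the vehicle arrays with Prl above 9 (0.0685) and with another probe set of the gene (0.0516).

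With celastrol Hsp90aa1 stood at 13.06 ± 0.018 (SD, n = 3), 13.08 ± 0.044 (SD, n = 4) and 13.03 ± 0.027 (SD, n = 4) at the 3 times. Its arrays ran from 13.05 to 13.08 at 6 h, from 13.03 to 13.13 at 1 day and from 12.99 to 13.05 at 4 days, and the times overlapped. Celastrol differences were 0.044 at 6 h, -0.043 at 1 day and 0.046 at 4 days, with limits between -0.12 and 0.13. Its level followed the endothelial marker list within groups (Pearson r = 0.628 over 23 arrays with group means removed, permutation test, adjusted p = 0.0401 over 110 relations; Spearman rho = 0.629, adjusted p = 0.084; r = 0.592 without the 2 arrays farthest from the median). Endothelial markers, 9 of 10 measured, averaged 9.53, 9.56 and 9.60 in vehicle mice and 9.51, 9.52 and 9.54 in celastrol mice, and their part in the result was not tested.

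Hspa1a encodes the stress-inducible HSP70, the classic target of HSF1. Vehicle arrays stood at 9.30, 9.16, 9.14 and 9.46 at 6 h, at 9.20, 9.19, 9.30 and 9.23 at 1 day, and at 9.12, 9.15, 9.21 and 9.22 at 4 days. Celastrol arrays stood at 9.10, 9.05 and 9.26 at 6 h, at 9.15, 9.14, 9.25 and 9.36 at 1 day, and at 9.02, 9.13, 8.95 and 9.01 at 4 days. The treatments overlapped at all 3 times, though at 4 days only the highest celastrol array reached the lowest vehicle array. The difference was largest there, -0.15 ± 0.066 SE (limma, adjusted p = 0.631), with an upper limit below 0 before adjustment. The mean effect over the 3 times was -0.095 (95% confidence interval -0.18 to -0.014; limma, adjusted p = 0.302).

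Hspa1b, a nearly identical copy of Hspa1a, had no probe set of its own here, so the Hspa1a signal may hold that of both copies and is uncertain for either. A probe set naming both copies had celastrol differences of 0.012 at 6 h, 0.14 at 1 day and -0.11 at 4 days, against -0.13, -0.0028 and -0.15 for the probe set of Hspa1a. Over arrays, with group means removed, the 2 probe sets had a correlation of 0.51.

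Hspa8 encodes the constitutive HSP70 that, among other tasks, uncoats clathrin vesicles at synapses. On the probe set used it was the steadiest member, with all 23 arrays between 13.88 and 14.02. In 6-h vehicle arrays the SD was 0.018 on that probe set and 0.057 on another Hspa8 probe set. On the probe set used the celastrol differences were -0.027, -0.025 and 0.0018 at 6 h, 1 day and 4 days. Vehicle arrays of 4 days (13.93, 13.89, 13.90 and 13.94) lay below all of 6 h (13.98, 14.01, 13.98 and 14.02), a difference of -0.08 ± 0.033 SE, and the test over the 3 times did not pass (limma F test, adjusted p = 0.129).
Hsph1 encodes HSP110, an exchange factor for HSP70. Its vehicle values were 11.24, 11.24, 11.32 and 11.32 at 6 h, 11.17, 11.31, 11.25 and 11.21 at 1 day, and 11.06, 11.06, 11.11 and 11.15 at 4 days. The 4-day arrays were below all earlier vehicle arrays, by 0.19 ± 0.057 SE from 6 h, yet the test did not pass (limma F test, adjusted p = 0.0751). The celastrol arrays of 6 h ran from 10.999 to 11.339, and the difference of -0.089 rested on the lowest of them, replicate 1: without it the difference was 0.0077. At 1 day celastrol arrays stood at 11.16, 11.18, 11.30 and 11.21, and at 4 days at 11.05, 11.15, 11.07 and 11.15, below all of 1 day.

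Dnajb1 encodes the main stress-inducible HSP40. Its celastrol differences were -0.079 at 6 h, -0.065 at 1 day and 0.082 at 4 days, and the intervals of all 3 held 0. In vehicle mice its arrays stood at 9.63, 9.42, 9.38 and 9.47 at 6 h, at 9.44, 9.59, 9.56 and 9.60 at 1 day, and at 9.32, 9.52, 9.53 and 9.51 at 4 days, with overlap between all times. In celastrol mice they stood at 9.34, 9.38 and 9.47 at 6 h, at 9.49, 9.49, 9.49 and 9.45 at 1 day, and at 9.57, 9.60, 9.57 and 9.48 at 4 days. The 4-day arrays were above all 6-h arrays, by 0.16 ± 0.061 SE, and the test over the 3 times did not pass (limma F test, adjusted p = 0.311).

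Bag3 encodes an exchange factor that joins HSP70 to small heat shock proteins and to autophagy. In vehicle mice it stood at 8.71, 8.80, 8.71 and 8.90 at 6 h, at 8.72, 8.70, 8.72 and 8.72 at 1 day, and at 8.81, 8.92, 9.02 and 8.93 at 4 days. Here the 4-day arrays were the high ones, above all of 1 day by 0.21 ± 0.061 SE (limma F test over the 3 times, adjusted p = 0.0703). With celastrol Bag3 stood at 8.82, 8.77 and 8.91 at 6 h, at 8.84, 8.91, 8.65 and 8.77 at 1 day, and at 8.98, 8.78, 8.95 and 8.81 at 4 days. These times overlapped, and the 4-day difference from 1 day was 0.088 ± 0.061 SE.
Hspb1 encodes the small heat shock protein HSP27, a holdase that partners Bag3. Vehicle values were 9.10, 9.19, 9.14 and 9.43 at 6 h, 9.19, 9.03, 9.05 and 8.99 at 1 day, and 9.14, 9.40, 9.34 and 9.18 at 4 days. Celastrol values were 9.05, 9.13 and 9.21 at 6 h, 9.22, 9.32, 9.16 and 9.14 at 1 day, and 9.26, 9.03, 9.14 and 9.01 at 4 days. The celastrol difference was 0.14 at 1 day and -0.15 at 4 days, with overlapping arrays at both (limma, adjusted p = 0.432 and 0.676). Its change of direction between times did not pass (limma F test, adjusted p = 0.304).

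Bag3 and Hspb1 varied together from array to array. Of the 45 pairs of members this was the only one past 0.05 (values with group means removed, 23 arrays, Pearson r = 0.757, permutation test, p = 0.00028, adjusted p = 0.0126; Spearman rho = 0.758, adjusted p = 0.0207). Without the 2 arrays farthest from the median of Bag3, r was 0.768, and without removal of group means it was 0.649. Of all 45 pairs 27 had an r above 0, and the median r was 0.094. The other probe set of Hspb1 gave an r of 0.708 with Bag3.

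**Figure D4:**
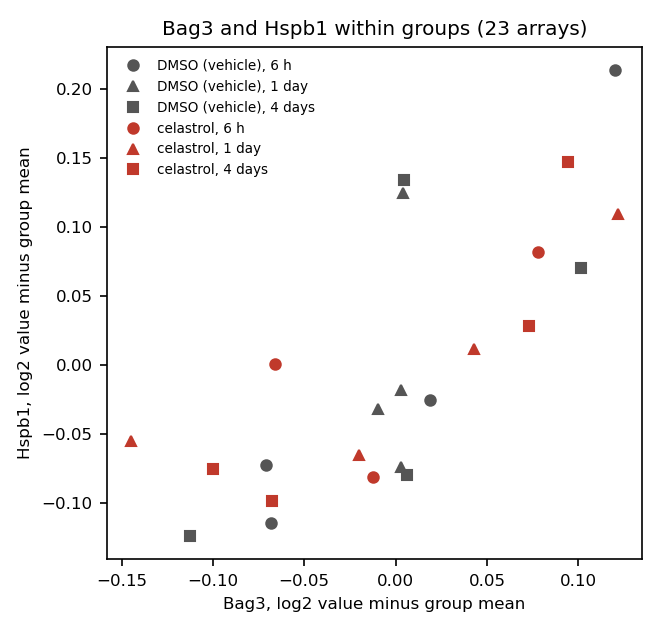
Bag3 (horizontal axis) and Hspb1 (vertical axis) on each of the 23 arrays, as log2 values with the mean of the array's group removed; grey is DMSO, red is celastrol, and the marker shape gives the time. Arrays high in Bag3 are high in Hspb1 in both treatments (r = 0.757).

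Markers of other tissue also varied over these arrays. Hspb1 varied with the pituitary marker list within groups (r = 0.729, permutation test, adjusted p = 0.0242 over 110 relations; Spearman rho = 0.722, adjusted p = 0.066; r = 0.716 without the 2 farthest arrays), and Bag3 had an r of 0.475 with that list (permutation test, adjusted p = 0.259). Against mural and fibroblast markers r was 0.682 for Hspb1 (permutation test, adjusted p = 0.0678) and 0.473 for Bag3 (permutation test, adjusted p = 0.339). Hspb1 also had r = 0.608 with the hypothalamus markers and 0.575 with choroid plexus markers (permutation test, adjusted p = 0.133 and 0.177). The hypothalamus list holds Pomc, which ran from 7.89 to 10.84 over the arrays. In each vehicle group that list averaged highest on the arrays with Prl above 9 (10.95 and 10.97 at 6 h, 10.89 at 1 day and 10.96 at 4 days). Whether its relation to Hspb1 is separate from that of the pituitary list was not tested. Pituitary markers, 7 of 9 measured, averaged between 6.99 and 9.34 over the vehicle arrays and between 7.08 and 8.42 over the celastrol arrays. Mural and fibroblast markers, 11 of 11 measured, averaged 9.03, 8.999 and 9.28 in vehicle mice and 9.08, 8.93 and 9.09 in celastrol mice at the 3 times. RMA values have no zero by which a marker could be called absent, and the part of these lists in the Bag3 and Hspb1 values was not tested. For Chordc1 the correlations with all 11 marker lists lay between -0.36 and 0.26, and none passed.

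The wider chaperone network was read from 11 further lists with 96 genes, 89 of them measured. With celastrol, 0 of the 89 passed at any time or for the mean effect (limma). At an unadjusted p under 0.05 there were 10 of the 89 at 6 h (14.8% of all genes), 2 at 1 day (12.5%), 1 at 4 days (7.29%) and 1 for the mean effect (13.5%). At 6 h 63 of 89 had lower values (median -0.035), and at 4 days 36 of 89 did (median 0.016). Of all genes 52.8% had higher values at 6 h and 49.7% at 4 days. The list counts given here were not repeated with the array SD as a covariate, which moved the members' 6-h median from -0.085 to -0.026. All 7 mitochondrial chaperones, 10 of 12 chaperones of the endoplasmic reticulum and 6 of 8 subunits of the TRiC chaperonin, which folds actin and tubulin, had lower values at 6 h, with 0 called in each list. At 4 days 6 of 7 mitochondrial, 7 of 12 endoplasmic reticulum and 7 of 8 TRiC genes had higher values, again with 0 called. Of 4 heat shock factors and binding proteins 3 had higher values at 6 h (median 0.053), and of 8 other small heat shock proteins 4 did (median 0.035). Of 19 HSP90 and HSP70 cochaperones 13 had lower values (median -0.047), and 5 of the 19 had an unadjusted p under 0.05, beside 14.8% of all genes. Hsf1 and Hsp90ab1 had no probe set of their own and were not analysed here.

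Over time in vehicle mice 9 of the 89 passed (10.1%), a share near the 8.83% of all genes. With the array SD as a covariate 0 of these 9 passed (limma F test, adjusted p between 0.187 and 0.459), and without replicate 2 of the 4-day vehicle group 3 of the 9 did. Of the 9, 8 were lowest at 4 days and 1, Hspa12b, was highest. Of the 1651 genes that differed in vehicle mice, 534 were lowest at 4 days (2.86% of all genes) and 1065 highest (5.69%). Passed or not, 44 of the 89 were lowest at 4 days, beside 28.2% of all genes. Hsf2, a heat shock factor that can pair with HSF1, had the smallest adjusted p and, like Chordc1, was highest at 1 day and lowest at 4 days, with means of 9.48, 9.57 and 9.22. Its level fell by 0.26 ± 0.068 SE from 6 h to 4 days (limma F test, adjusted p = 0.00921).
Ppid, the cyclophilin that binds HSP90, fell by 0.36 ± 0.076 SE (limma F test, adjusted p = 0.0155). Ptges3, the HSP90 cochaperone p23, fell by 0.11 ± 0.045 SE (adjusted p = 0.0370) and Sugt1, the cochaperone SGT1, by 0.19 ± 0.05 SE (adjusted p = 0.0252). Of 15 HSP40 genes 1 passed, Dnaja1 (-0.23 ± 0.056 SE, limma F test, adjusted p = 0.0242). Also lower were Hspd1, the mitochondrial HSP60 (-0.24 ± 0.055 SE), Dnajb9, an HSP40 of the endoplasmic reticulum (-0.20 ± 0.05 SE), and Ube2b, a ubiquitin-conjugating enzyme (-0.27 ± 0.057 SE). Hspa12b, a distant HSP70 relative of endothelial cells, was higher at 4 days by 0.23 ± 0.06 SE (limma F test, adjusted p = 0.0351). None of the 89 passed over time in celastrol mice (limma, 12 at an unadjusted p under 0.05, beside 16.4% of all genes), and whether the time course differed between treatments is the celastrol effect between times, which 0 of the 89 passed (limma, 7 at an unadjusted p under 0.05, beside 13% of all genes).

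**Figure D5:**
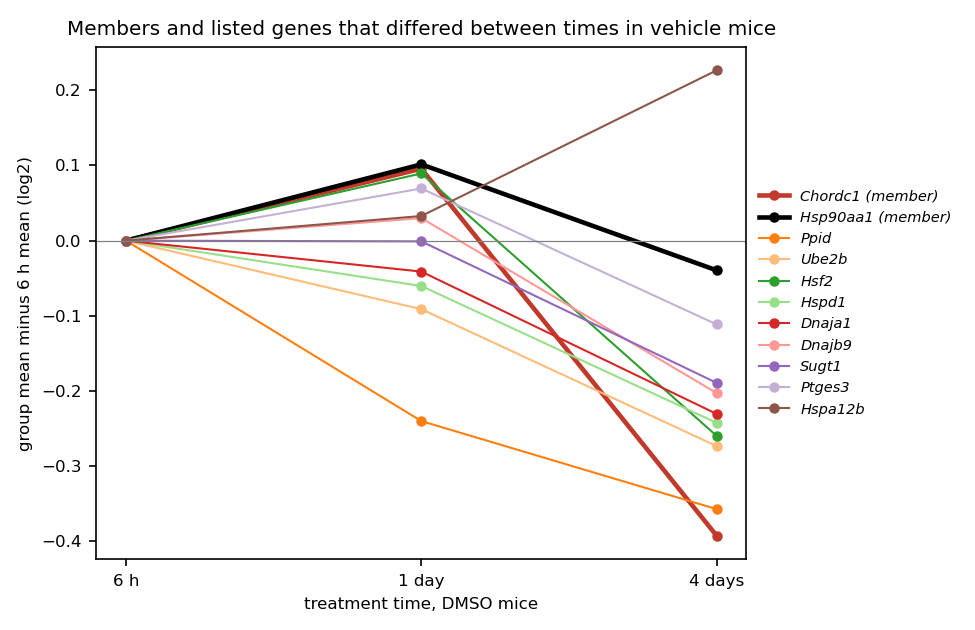
Group means in DMSO mice less the 6-h mean (vertical axis, log2) at 6 h, 1 day and 4 days for the 2 members and 9 genes of the other lists that differed between times in vehicle mice; thick lines are the members Chordc1 and Hsp90aa1. Hspa12b ends above its 6-h mean, at 0.23, and the other 10 genes end below it.

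For 3 members the table held further probe sets naming the gene alone, and these served as a check. The Hspa8, Hsp90aa1 and Hspb1 probe sets of highest mean had 0 of 20 neighbours in probe set number that name genes of the same chromosome, while another probe set of each gene had 20, 19 and 20. Celastrol differences at 6 h, 1 day and 4 days for those other probe sets were -0.048, -0.053 and -0.018 for Hspa8, 0.024, -0.033 and 0.04 for Hsp90aa1, and -0.089, 0.12 and -0.17 for Hspb1. Within groups those other probe sets had an r with the ones used of 0.344 for Hspa8, 0.919 for Hsp90aa1 and 0.979 for Hspb1. The Hspa8 probe set used thus ran only loosely with the one numbered on the gene's own chromosome. A further probe set naming the gene alone, with 0 of 20 such neighbours, had r = 0.823 for Hspa8 and 0.748 for Hsp90aa1. In vehicle mice the 3 probe sets of Hsp90aa1 had adjusted p of 0.0355, 0.0460 and 0.0220 over time when every probe set was tested (limma F test). In the fit of 1 probe set per gene, the Hsp90aa1 probe set with neighbours on its own chromosome did not pass (adjusted p = 0.0516).

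The genes most like each member over the 23 arrays, with group means removed, were ranked by Pearson r. The highest were Crtap (0.83) and the endoplasmic reticulum chaperone gene Hyou1 (0.822) for Hspa1a, Tram1l1 (0.847) for Hsph1, Tmed10 (0.782) for Hspa8 and Dlx6 (0.818) for Hsp90aa1. For the others the most alike were Tspyl4 (0.878) for Dnajb1, Fen1 (0.84) for Bag3, Pltp (0.792) for Hspb1, Atp6ap2 (0.88) for Cacybp and Emc6 (0.902) for Ahsa1. Chordc1 had the lowest such r, 0.699 with B3galt4. Without removal of group means, where the fall at 4 days enters, Chordc1 was most like Mindy2 (0.917), Taf2 (0.902) and Nxf1 (0.899).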

How the data were processed

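Total RNA of 23 hypothalamus samples was labelled with Affymetrix whole-transcript kits. Before deposit the authors made log2 values with RMA, per the submitters' processing notes, which give no version. RMA as a method corrects background, normalizes by quantiles and sums up each probe set; it draws low signals together, so differences of weak genes are understated. Of 23492 probe sets 20228 name 1 gene, 1399 several and 1865 none. Symbols came from GEO's platform annotation, and the current symbol was taken where the gene identifier was found in RefSeq. It was found for 20182 of the 20228, whether or not the symbol changed, and 46 kept the symbol given. The 18704 genes named alone were tested, and 809 of them had several probe sets.

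Group means were fitted over all 23 arrays with limma 3.58.1 in R 4.3.3 (17 residual degrees of freedom, 2-sided, Benjamini-Hochberg over all genes at 0.05), and correlations were tested by 100000 permutations within groups in Python 3.11.15 with NumPy 2.4.6. Figures were drawn with matplotlib 3.10.9. The fit across genes was tested on simulated data. Precision is limited by the number of arrays.

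The members and lists were chosen with earlier results of these data known. Named are all 10 members, up to 3 genes per list by the smallest p in the mean effect or in the vehicle time test, and for each member the 3 genes of highest r; among the latter the first is given, with Hyou1 singled out after its values were seen. Alternatives were trend and robust variance, no lowest tercile of genes, further quantile normalization, median centring, the replicate number as a block, array weights, all or averaged probe sets, only the groups compared, the array SD as a covariate and each array left out. After the data were examined, the probe sets numbered among genes of their own chromosome and the fit without vehicle arrays with Prl above 9 were added.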

Additional observations from a re-analysis of the deposited data

Results flagged for a closer look

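In 5 of the 50 groups of 4 arrays, 1 array stood farther from the other 3 than a 95% Dixon criterion allows, where chance gives about 1 in 20 groups, or 2.5 of 50. Each was the lowest of its group. Chordc1 on replicate 3 of the 1-day vehicle group stood at 10.1188, with the others between 10.31 and 10.33. Dnajb1 stood at 9.32216 on replicate 1 of the 4-day vehicle group (others 9.51 to 9.53) and at 9.45498 on replicate 4 of the 1-day celastrol group (others 9.49). Bag3 on replicate 2 of the 1-day vehicle group stood at 8.70364, with the others at 8.72, and Cacybp on replicate 4 of the 4-day celastrol group at 12.3597, with the others between 12.45 and 12.47.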

How the results depend on the processing

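No member passed for a celastrol difference in any setting, and the smallest adjusted p was 0.0969 (Chordc1 at 6 h without the vehicle arrays with Prl above 9). At 6 h that setting leaves only replicates 1 and 3 of the vehicle group, and replicate 3 had the lowest array weight, 0.200. Pituitary markers averaged 7.05 and 7.17 on those arrays and between 7.67 and 8.42 on the 6-h celastrol arrays, so a pituitary difference remains there. Of 1390 celastrol differences of members under other settings 44 turned direction, 4 of them where the difference had been over 1 SE, and those of Hsp90aa1 and Bag3 kept theirs. Many of these settings cannot change a difference, so 44 of 1390 is no measure of how stable the directions are. Among such settings are trend and robust variance, no lowest tercile of genes, only the groups compared, and an array of another time left out. With the array SD as a covariate the differences that turned were Dnajb1 at 6 h (0.028), Hspa1a (0.073), Hsph1 (0.047), Dnajb1 (0.020) and Cacybp (0.027) at 1 day, Hsph1 (-0.026), Hspa8 (-0.0029) and Cacybp (-0.0018) at 4 days, and Hsph1 (0.0068), Dnajb1 (0.028) and Ahsa1 (0.0059) in the mean effect. Without the vehicle arrays with Prl above 9 they were Hspb1 at 6 h (0.013) and in the mean effect (0.030), Ahsa1 at 1 day (-0.00042), and Hsph1 (-0.0018) and Hspa8 (-0.0077) at 4 days. After quantile normalization they were Hspa1a at 1 day (0.018), and Hsph1 (-0.0040) and Hspa8 (-0.014) at 4 days. With array weights they were Ahsa1 at 1 day (-0.00040) and Chordc1 at 4 days (0.0075), and with other probe sets Hspa8 at 4 days (-0.0018 averaged, -0.018 for the one numbered on its own chromosome). Over the arrays left out in turn, Hsph1 at 6 h ran from -0.16 to 0.0077; at 1 day Hspa1a ran from -0.049 to 0.026, Hsph1 from -0.053 to 0.0014 and Ahsa1 from -0.026 to 0.056; at 4 days Hsph1 ran from -0.0050 to 0.030, Hspa8 from -0.0077 to 0.015 and Chordc1 from -0.038 to 0.032. The Chordc1 call in vehicle mice held in 34 of 35 settings and that in celastrol mice in 33 of 35. Hsph1 in vehicle mice passed in 3 of 35 settings (limma F test). Among them were the fit without replicate 1 of the 6-h celastrol group (smallest adjusted p, 0.0332) and that with trend and robust variance (0.0409). Hspa8 passed in 1 setting, trend and robust variance (adjusted p = 0.0413). Bag3 passed in 2, with array weights (0.0361) and without replicate 4 of the 6-h vehicle group (0.0464). The median r over pairs of members was 0.044 without removal of group means and 0.0654 after quantile normalization.

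Counts of genes past 0.05 over all 18704 moved more. At 6 h (0 genes) it was 16 without the Prl arrays, a fit that keeps only replicates 1 and 3 of the 6-h vehicle group, and 0 to 2 with an array left out. At 1 day (3 genes) it was 0 with trend and robust variance, 1 after quantile normalization, 406 with array weights, 1 with the array SD, 0 without the Prl arrays and 0 to 7 with an array left out. At 4 days (0) and for the mean effect (0) it reached 39 and 9 without replicate 4 of the 4-day vehicle group, from 0. For the celastrol effect between times (11) it was 0 with trend and robust variance, 5 without the lowest tercile, 0 after quantile normalization, 0 with the array SD and 0 (without replicate 4 of the 1-day celastrol group) to 118 (without replicate 4 of the 4-day celastrol group) with an array left out. In vehicle mice (1651) it was 710 after quantile normalization, 2491 with array weights, 2 with the array SD and 664 (without replicate 2 of the 4-day vehicle group) to 1933 (without replicate 4 of the 6-h vehicle group) with an array left out. In celastrol mice (46) it was 29 after quantile normalization, 96 with array weights, 0 with only the celastrol groups and 0 (without replicate 4 of the 1-day celastrol group) to 200 (without replicate 3 of the 6-h vehicle group) with an array left out. The cause of these shifts was not tested.

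With the replicate number as a block, the counts were 0 at 6 h, 1 at 1 day, 1 at 4 days, 1 for the mean effect, 6 for the effect between times, 1450 in vehicle mice and 48 in celastrol mice, and Hsp90aa1 was lost in vehicle mice (adjusted p = 0.0561). Same-numbered arrays of a time had a mean correlation of 0.015 (2 of 11 pairs over 0.1, the highest 0.188). Only 4 of 22 arrays correlated best with their own number. Pairing by number was thus not seen, but 11 pairs are too few to exclude it.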
